A study of Homo sapiens with 15 samples.

Results

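Cells take up glucose through the GLUT proteins of the SLC2A family, and the arrestin TXNIP and its relatives take these carriers off the cell surface again. The genes described here are 10 by list: the transporters SLC2A1, SLC2A3, SLC2A9, SLC2A12 and SLC2A13, the alpha-arrestins TXNIP, ARRDC3 and ARRDC4, and MLXIP and MLX, the transcription factor pair that switches TXNIP and ARRDC4 on. They were picked by gene symbol from the deposited expression table of 15790 genes, which held 8 of the 10, and SLC2A9 and SLC2A12 are not analysed here. The list was drawn up with earlier results of these data in view, so the levels of these 8 genes and the differences between cultures are a description, and no support is drawn from how many of them passed a threshold. In the table they are SLC2A1 (ENSG00000117394.24), SLC2A3 (ENSG00000059804.17), SLC2A13 (ENSG00000151229.13), TXNIP (ENSG00000265972.6), ARRDC3 (ENSG00000113369.9), ARRDC4 (ENSG00000140450.9), MLXIP (ENSG00000175727.15) and MLX (ENSG00000108788.12).

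RNA was sequenced from 15 libraries of human cell cultures in 5 groups of 3. RPTEC/TERT1 cells, a renal proximal tubule line immortalized with telomerase, grew on LN/FN-silk membranes either alone, the silk monocultures, or with fHDF/TERT166 cells (foreskin dermal fibroblasts, likewise immortalized), the silk co-cultures. The same monocultures and co-cultures were set up on LN/PC membranes, with fibroblasts seeded shortly before the epithelial cells, and the fifth group was fHDF/TERT166 alone. The epithelial medium, also used for the co-cultures, held 5 mM glucose, 5 μg/ml bovine insulin, 10 ng/ml epidermal growth factor and 36 ng/ml hydrocortisone besides transferrin, selenite and a low serum supplement. The seeding density was 140000 epithelial cells and 14000 fibroblasts per cm2, and cultures were taken 14 days later. For the epithelial monocultures and the co-cultures 3 to 8 membranes were pooled into a sample, and no such pooling is given for the fibroblast libraries. The fibroblasts were expanded in another medium with more serum, and the labels do not say in which medium, or at which glucose concentration, the fibroblast libraries were grown. Their titles call them monocultures, while the protocol speaks of basolateral fibroblasts scraped from the well bottom. Silk was scraped off and LN/PC was cut from its holder, so membrane and way of harvest cannot be told apart. Each cell type is a single immortalized line, nothing in the labels tells whether replicates came from separate cultures, and p-values therefore measure only sample-to-sample spread, which may be technical.

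GLUT1 (SLC2A1) carries glucose in most cells, and in the proximal tubule it sits on the basolateral side, where glucose recovered from the filtrate leaves the cell. GLUT3 (SLC2A3) has a higher affinity for glucose and is best known from neurons, and GLUT13 (SLC2A13) is a proton-coupled myo-inositol carrier. TXNIP binds thioredoxin, and it also binds GLUT1 and promotes its removal from the surface and its degradation. MLXIP, also called MondoA, pairs with MLX, moves to the nucleus when glucose 6-phosphate builds up, and activates TXNIP and ARRDC4 through carbohydrate response elements, pairs of E-box-like sequences in their promoters. More sugar phosphate in the cell thus raises TXNIP, which in turn limits glucose uptake.

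The promoters of TXNIP and ARRDC4 are printed because these genes moved in the same direction in the silk co-cultures, and the end of the SLC2A1 promoter because SLC2A1 moved in the opposite one. They run 5′ to 3′ to the last base before the start of transcription and come from RefSeq (GRCh38.p14), as the reverse strand of chr1:145996580-145996829 for TXNIP, the forward strand of chr15:97960453-97960702 for ARRDC4, and the reverse strand of chr1:42958869-42958968 for SLC2A1. Capitals mark matches of the E-box (CACGTG) or, in TXNIP, of a pair of E-box-like sequences (CACGNG, where N is any base) that stand 5 bases apart.
TXNIP: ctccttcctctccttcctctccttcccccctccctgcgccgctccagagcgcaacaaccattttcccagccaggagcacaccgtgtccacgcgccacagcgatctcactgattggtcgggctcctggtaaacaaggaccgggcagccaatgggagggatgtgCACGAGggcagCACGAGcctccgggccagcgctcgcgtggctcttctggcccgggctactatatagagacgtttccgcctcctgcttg
ARRDC4: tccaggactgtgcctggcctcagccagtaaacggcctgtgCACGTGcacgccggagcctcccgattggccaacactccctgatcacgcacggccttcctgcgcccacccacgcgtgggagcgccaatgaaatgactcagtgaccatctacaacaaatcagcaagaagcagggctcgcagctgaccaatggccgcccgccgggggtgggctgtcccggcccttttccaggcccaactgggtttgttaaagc
SLC2A1: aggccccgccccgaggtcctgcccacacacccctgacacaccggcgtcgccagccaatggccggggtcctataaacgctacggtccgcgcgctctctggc
Positions below count back from the start, the last base before it being -1. The TXNIP promoter held the paired form from -88 to -72, which 16 of 35116 promoters of 250 bases in the table held on either strand (0.0456%). ARRDC4 held a single CACGTG from -210 to -205, MLX one from -50 to -45 and SLC2A13 one from -25 to -20, and 6.34% of the promoters held CACGTG. The shorter ACGTG, the core of the element bound by hypoxia-inducible factors (HIF) and also a part of CACGTG, was in 18.5% of them. No E-box, pair or HIF core was found in the 250 bases before SLC2A1, MLXIP or either listed start of ARRDC3. A second TXNIP start held 1 ACGTG, from -162 to -158. A match in these letters is a description and shows no binding. Of the 10 listed genes, 9 had a promoter in the table, and SLC2A3 had none.

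Values are normalized counts, computed back from the authors' log2 table. They compare one gene between libraries. They do not compare genes with each other, since transcript length was not taken into account. Differences are on the scale of log2(normalized count + 1), with the standard error (SE) of a limma fit over all tested genes, and a gene is called where the adjusted p (Benjamini-Hochberg over those genes) is under 0.05. Shares of all genes called refer to that adjusted threshold. Where a count at an unadjusted p under 0.05 is given, no share of all genes at that level stands beside it. Totals ran from 9.08 to 12.7 (in units of 1e6 normalized counts) a library, from about 8.79 to 14.8 (in units of 1e6) assigned reads, and mitochondrially encoded transcripts made up 1.50% to 6.58% of a library, with the silk libraries at the top (4.23% to 6.58%). The cell labels were checked on marker lists. The epithelial monocultures expressed the tubular genes PAX8, CDH16 and GGT1, which were at or near 0 in the fibroblasts, and the proximal tubule receptor CUBN was low (61.9 ± 42.1 on silk and 41.0 ± 21.7 on LN/PC) and higher in the fibroblasts (151 ± 40.7). They also expressed SLC12A1 and KCNJ1, which mark the thick ascending limb. Of 15 proximal tubule markers 10 were in the table, and not all of them told the cells apart. AQP1 (10.7 ± 3.94 on silk and 10.3 ± 4.38 on LN/PC, against 6709 ± 448 in fibroblasts), MME (9.41 ± 5.13 and 6.10 ± 6.45 against 8684 ± 524) and ANPEP were higher in the fibroblasts. Summed over the 10, the fibroblasts (25653 to 29525) were above the silk (16216 to 22003) and the LN/PC monocultures (18690 to 23207). The other 5 proximal tubule markers, the defining LRP2, SLC34A1 and SLC5A2 among them, are not analysed here.

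A co-culture library holds the RNA of both cell types. The fibroblast share was read from 112 genes restricted to fibroblasts. It was 13.9%, 9.81% and 15.2% in the 3 LN/PC co-culture libraries, and 0.0239%, 0 and 0.113% in the 3 silk ones. In bulk RNA fewer cells of a type and less RNA per cell cannot be told apart. Summed over the 16 fibroblast markers of the list, the silk co-cultures had 60369 to 63930.2 normalized counts against 35862 to 41063 in the silk monocultures, the LN/PC co-cultures 165071 to 251338, and the fibroblasts 687835 to 755273. In the silk cultures nearly all of that sum was VIM, which the epithelium expresses too. Without VIM the other 15 markers summed to 1442 to 1767 in the silk co-cultures and 1428 to 1773 in the silk monocultures, to 101450 to 181777 in the LN/PC co-cultures and to 1041 to 1340.5 in the LN/PC monocultures. In the silk co-cultures POSTN and TWIST1 were at 0 in all 3 libraries, while collagen genes had higher means than in the silk monocultures, COL1A1 120 ± 87.0 against 24.9 ± 14.7, COL1A2 93.2 ± 95.5 against 8.38 ± 14.5, COL6A3 87.4 ± 125 against 3.45 ± 5.65 and COL3A1 27.9 ± 24.3 against 0. Of the 16 markers, limma called 3 higher there, where 2.91% of all genes were called higher.

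**Figure D1:**
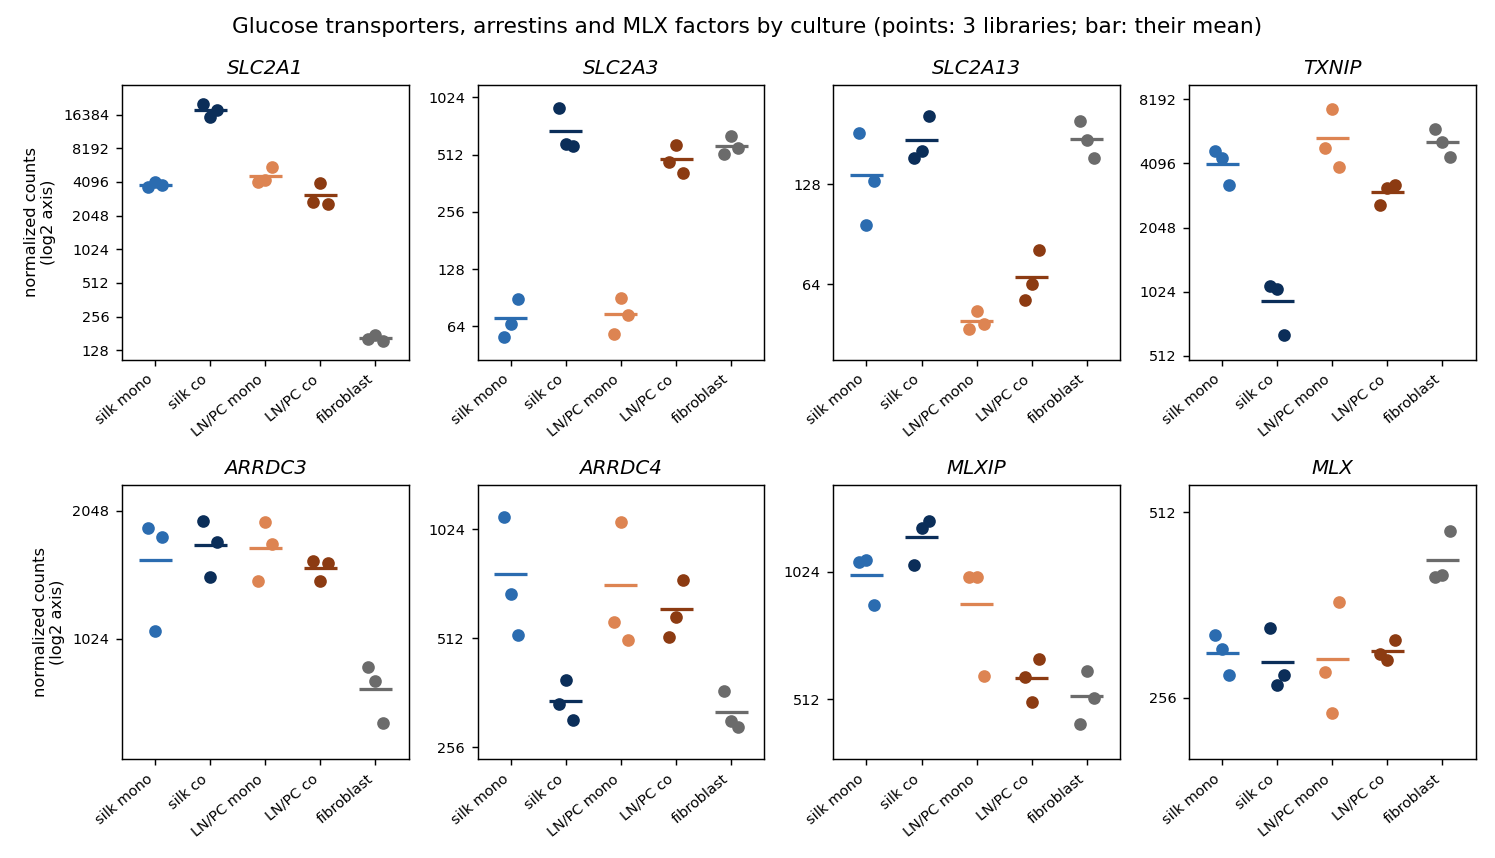
Normalized counts (log2 axis) of the 8 genes in the 5 cultures; points are the 3 libraries of a group and bars their mean. SLC2A1 stands alone at the top in the silk co-cultures (15466 to 20519) where TXNIP is lowest (638 to 1093), and SLC2A3 is high in both co-cultures and in fibroblasts.

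The transporter SLC2A1 had 3705, 4062 and 3869 normalized counts in the silk monocultures, against 20519, 15466 and 17844 in the silk co-cultures. Its values were 4069, 4220.3 and 5579 in the LN/PC monocultures, 2728, 4022 and 2616 in the LN/PC co-cultures, and 161, 174 and 155 in the fibroblasts. All 3 silk co-culture libraries thus lay above every other library, and all fibroblast libraries lay below every epithelial one. The silk co-culture mean (17943 ± 2528, SD, n = 3) was 4.63 times the silk monoculture mean (3879 ± 179), a log2 difference of 2.20 ± 0.19 (SE). On LN/PC the co-culture libraries all lay below the monoculture libraries, at 3122 ± 782 against 4623 ± 832, and the difference of -0.58 ± 0.19 missed the threshold (limma, adjusted p = 0.0563). It passed without LN/PC monoculture 2 (-0.64) or LN/PC co-culture 2 (-0.78). Over all 15 alternatives it ran from -0.78 to -0.15 and was called in 2. Between membranes the co-cultures differed by 2.54 ± 0.19, silk being higher, while the monocultures differed by -0.24 ± 0.19. In order of their means the groups ran silk co-culture, LN/PC monoculture, silk monoculture, LN/PC co-culture and fibroblast, and the libraries overlapped between the third and the fourth of these only.

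SLC2A3 behaved differently, being low in both epithelial monocultures and high in both co-cultures. It had 56.4, 65.4 and 89.2 normalized counts in the silk monocultures, against 901, 579 and 569 in the silk co-cultures. The corresponding values on LN/PC were 58.4, 90.4 and 73.4 alone and 466, 578 and 409 with fibroblasts. No co-culture library of either membrane came near a monoculture library. The log2 difference was 3.25 ± 0.24 on silk, a ratio of means of 9.71, and 2.70 ± 0.24 on LN/PC, a ratio of 6.54. The fibroblasts themselves had 517, 638 and 554, so their level overlapped with that of both co-cultures, and the silk and LN/PC co-cultures overlapped with each other as well. SLC2A3 has a close copy, SLC2A14, which is not analysed here. Reads common to both could have been divided between them when transcripts were quantified.

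The inositol carrier SLC2A13 followed the membrane. Alone on silk its counts were 182, 96.2 and 130.4, and with fibroblasts 153, 161 and 205. On LN/PC they were 47.0, 53.1 and 48.5 alone, and 57.1, 64.0 and 80.9 with fibroblasts. Every silk library was above every LN/PC library, by 1.39 ± 0.26 log2 units in the monocultures and by 1.35 ± 0.26 in the co-cultures. The co-cultures differed from the monocultures by 0.38 ± 0.26 on silk, with overlapping libraries, and by 0.42 ± 0.26 on LN/PC, where the libraries did not overlap. Fibroblasts, at 199, 174 and 154, were at the level of the silk co-cultures (means of 175 ± 22.6 and 173 ± 28.1).

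TXNIP, the arrestin that limits glucose uptake, was lowest in the silk co-cultures. Its counts were 4658, 4322 and 3229.7 alone on silk, against 1093, 1049 and 638 in the silk co-cultures. They were 4824, 7356 and 3956 in the LN/PC monocultures, 2608, 3145 and 3225 in the LN/PC co-cultures, and 5919, 5164 and 4383 in the fibroblasts. The silk co-culture libraries were all below every other library, and the LN/PC co-cultures lay between them and the 3 monoculture groups, which overlapped along the order of their means. The silk difference was -2.16 ± 0.24 log2 units, the co-culture mean (927 ± 251) being 4.39-fold lower than the monoculture mean (4069.9 ± 747). On LN/PC it was -0.80 ± 0.24, a mean of 2993 ± 336 against 5379 ± 1766. That call held in 7 of 15 alternative analyses. It was lost without LN/PC monoculture 1 (limma, adjusted p = 0.0706), monoculture 2 (0.106), co-culture 1 (0.144), co-culture 2 (0.0640) or co-culture 3 (0.0557), when only the 6 LN/PC libraries were fitted (0.0561), when the monocultures were mixed with fibroblast libraries at the measured share (0.0513), and after scaling on epithelial genes (-0.38, 0.250 for the adjusted p).

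ARRDC4, like TXNIP a MondoA target, was also lower in the silk co-cultures, at 338, 392 and 304 normalized counts against 1105, 677 and 524 in the silk monocultures. The libraries did not overlap, and silk monoculture 1 stood above the other silk monocultures. On LN/PC the values were 569, 1074 and 506 alone and 518, 586 and 742 with fibroblasts, and there they overlapped. The difference was -1.09 ± 0.28 on silk and -0.15 ± 0.28 on LN/PC. The silk call was lost in 6 of 14 alternatives, without silk monoculture 1 (-0.80, limma, adjusted p = 0.119) or 2 (0.0872), without silk co-culture 1 (0.110), 2 (0.0687) or 3 (0.172), and after scaling on epithelial genes (0.0506). Fibroblasts had 365, 302 and 292, a level that overlapped with the silk co-cultures.

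ARRDC3, an arrestin known for bringing down the beta-2 adrenergic receptor, stayed within a narrow range in the epithelial cultures. Group means ran from 1501 ± 87.3 in the LN/PC co-cultures to 1702 ± 257 in the silk co-cultures, a ratio of 1.13, and all 4 epithelial groups overlapped. The fibroblasts were lower, with 879, 816 and 646. None of the 4 differences between epithelial groups was called by limma, and the largest, silk over LN/PC in the co-cultures, was 0.17 ± 0.20.

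MLXIP and MLX form the sensor that acts on TXNIP and ARRDC4. MLXIP had 1079, 1093 and 853 counts in the silk monocultures, 1063, 1298 and 1353 in the silk co-cultures, 996, 997 and 580.1 in the LN/PC monocultures, and 578, 504 and 637 in the LN/PC co-cultures. The co-cultures of the 2 membranes did not overlap, and silk was higher by 1.11 ± 0.20 log2 units. Against the monocultures the difference was 0.30 ± 0.20 on silk and -0.54 ± 0.20 on LN/PC, with overlap on both membranes. Without LN/PC monoculture 3, the library with 580.1 counts, the LN/PC difference was -0.80 and passed the threshold (limma, adjusted p = 0.00472). Over all 15 alternatives that difference ran from -0.80 to -0.12 and was called in 1. MLX ranged from 242 to 365 over all 12 epithelial libraries, its 4 group means from 293 ± 33.8 to 305 ± 11.6, and the fibroblasts had 402, 405 and 477.

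Counted together, 4 of the 8 genes were called between silk co-cultures and monocultures, where 3.78% of all 14433 tested genes were called. SLC2A1 and SLC2A3 were higher (2.91% of all genes were) and TXNIP and ARRDC4 lower (0.866%). The libraries of these 4 genes did not overlap, as was the case for 27.1% of all genes. On LN/PC 2 of 8 were called, with 12.5% of all genes, SLC2A3 higher (7.80%) and TXNIP lower (4.72%), and 4 of 8 did not overlap, SLC2A1, SLC2A3, SLC2A13 and TXNIP, with 25.9% of all genes. Between the co-cultures of the 2 membranes 5 of 8 were called, with 36.1% of all genes: SLC2A1, SLC2A13 and MLXIP were higher on silk (18.5%), TXNIP and ARRDC4 lower (17.6%). The same 5 did not overlap, with 53.7% of all genes, and the ARRDC4 call held in 10 of 14 alternatives, being lost without silk co-culture 1 (-0.82) or 3 (-0.74) or LN/PC co-culture 2 (-0.85) or 3 (-0.68). Between the monocultures SLC2A13 was called, higher on silk, with 11.7% of all genes (5.88% higher and 5.79% lower). There 2 of 8 did not overlap, SLC2A13 and SLC2A1, with 26.4% of all genes. These comparisons share libraries, and the genes were chosen with the results known, so nothing is read from the counts.

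**Figure D2:**
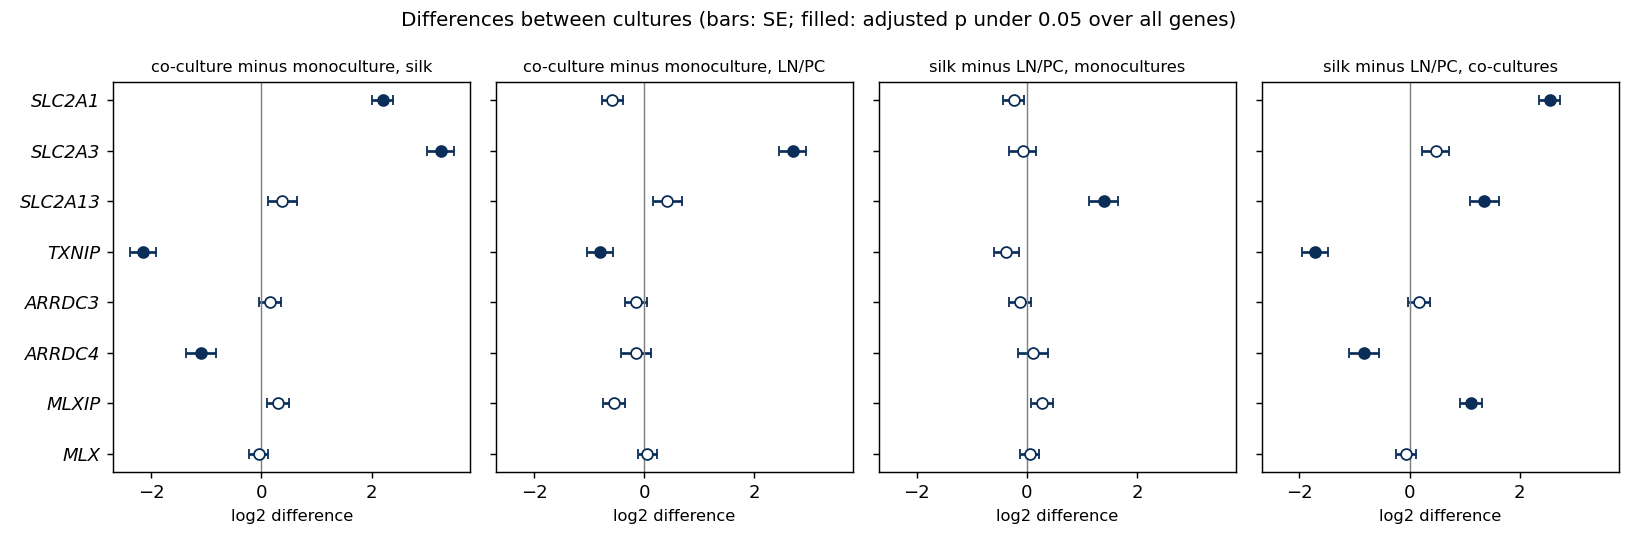
Log2 difference of each of the 8 genes in 4 comparisons; bars are the SE of the limma fit, and filled points have an adjusted p under 0.05 over all tested genes. SLC2A1 lies at 2.20 for the silk co-cultures and at -0.58 for the LN/PC co-cultures, SLC2A3 at 3.25 and 2.70.

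Whether adding fibroblasts acted differently on the 2 membranes was fitted as an interaction, the silk difference minus the LN/PC difference. For SLC2A1 it was 2.78 ± 0.27 log2 units, between 2.55 and 2.98 over 18 alternatives and called in all of them. For TXNIP it was -1.35 ± 0.33 and called in 17 of the 18. Without silk co-culture 3, its lowest library, it was -1.11 (limma, adjusted p = 0.0611). These were the 2 of 8 genes called, with 7.73% of all genes (3.15% higher and 4.59% lower). None of the 18 alternatives mixed in fibroblast libraries or took fibroblast RNA off. SLC2A3, at 0.55 ± 0.34, was not called, and its silk and LN/PC differences are given above side by side. ARRDC4 (-0.94) and MLXIP (0.84) were not called either, and each was called in 1 of 18 alternatives, ARRDC4 at -1.27 without LN/PC monoculture 2 and MLXIP at 1.10 without LN/PC monoculture 3.

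Fibroblast RNA by itself can move a gene in a co-culture where its share is large and the gene's fibroblast and monoculture levels differ. Each co-culture library was therefore set against a weighted sum of the mean of its membrane's monocultures and the fibroblast mean. The weights came from the library's own fibroblast share. For SLC2A3 on LN/PC the weighted sum averaged 138 and the libraries had 2.74 to 4.71 times that value, or 2.02 to 3.96 times with a share read from summed markers (a mean of 20.9% in place of the share above). On silk the SLC2A3 sum averaged 70.6 and the ratio was 8.03 to 12.8. TXNIP had 0.488 to 0.603 of its weighted sum on LN/PC and 0.157 to 0.269 on silk. Its level in the fibroblasts was close to that in the monocultures, so the sum hardly depended on the share. SLC2A1 had 3.99 to 5.29 times the sum on silk and 0.663 to 0.961 on LN/PC, or up to 1.01 with the summed-marker share. ARRDC4 had 0.396 to 0.510 on silk, and on LN/PC 0.783 to 1.13, a range on either side of 1. SLC2A13 on LN/PC had 0.853 to 1.18 of its sum, or 0.736 to 0.987 with the summed-marker share, the fibroblast level being above the LN/PC monoculture level. The sums assume that neither cell type changes in co-culture, which was not tested.

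**Figure D3:**
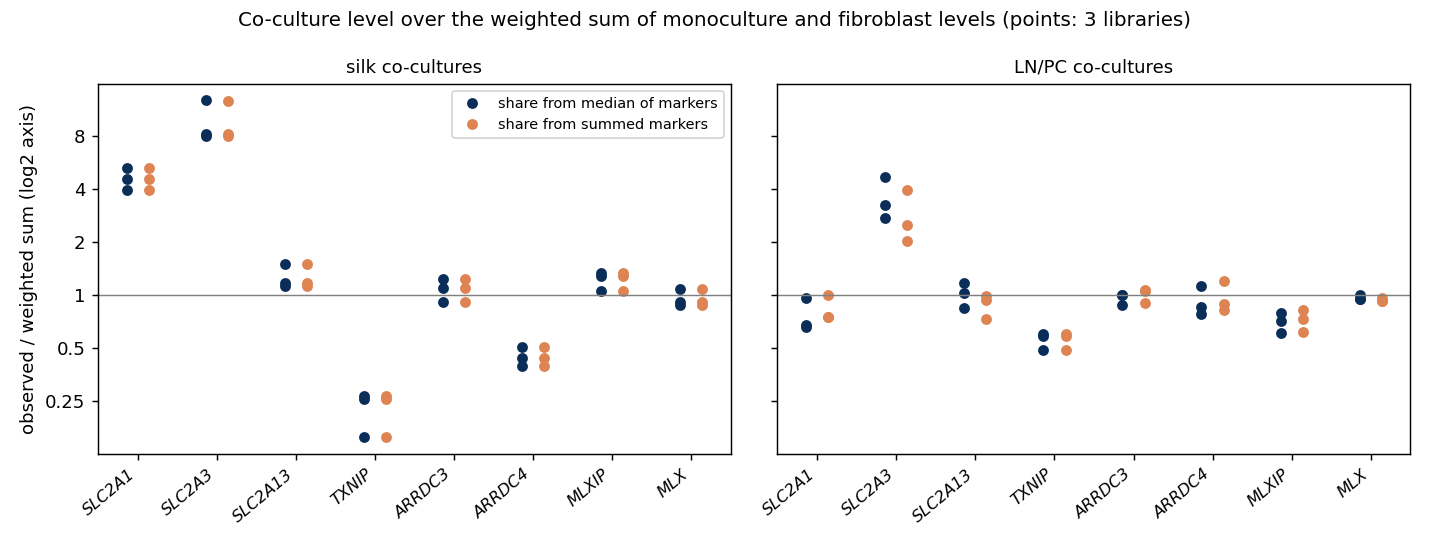
Observed level of each gene in each co-culture library divided by the weighted sum of the monoculture and fibroblast means (log2 axis), for 2 ways of reading the fibroblast share; 3 libraries per column. SLC2A3 is above 1 in every library of both membranes and TXNIP below 1, while SLC2A1 is far above 1 on silk and between 0.663 and 1.01 on LN/PC.

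Fibroblasts differed from the epithelial monocultures in 7 of the 8 genes, where 58.3% of 14502 tested genes were called (28.0% higher and 30.3% lower). SLC2A1 was lower (-4.68 ± 0.12), a mean of 163 ± 9.87 against 3879 and 4623. SLC2A3 was higher (2.98 ± 0.21), and so were SLC2A13 (1.10) and MLX (0.52). The MLX call was lost without fibroblast library 3 (limma, adjusted p = 0.0756). ARRDC3 (-1.04), ARRDC4 (-1.14) and MLXIP (-0.82) were lower, and TXNIP (0.16) was not called. Medium may differ between these cultures as well as cell type, and the part of the medium was not tested.

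Libraries of one group also differed among themselves, and there TXNIP and ARRDC4 went together. In 4 of the 5 groups their 3 libraries had the same order, silk co-cultures being the exception. As a description, the Pearson correlation of their deviations from the group means over the 15 libraries was 0.811, and ARRDC4 ranked 27 among 10182 genes by it. The ranking began with HSPA1B (0.936), a heat shock chaperone, DUSP10 (0.926), a phosphatase of stress kinases, and ENSG00000291136 (0.890). Next came JUNB (0.883), an immediate early factor, and SDE2 (0.880). These genes were named after their values were seen. SLC2A1 deviated with a correlation of -0.14 with TXNIP. The libraries share processing but differ in depth, and no p is given. Silk monoculture 1 and LN/PC monoculture 2 had the largest ARRDC4 deviations (0.59 and 0.67). They also had the most estimated reads and the highest mitochondrial share (6.58% and 3.8%) of their groups. Fibroblast library 3 had the most reads of its group but the lowest TXNIP and ARRDC4. Silk co-culture 3 had the highest mitochondrial share of its group and the lowest TXNIP and ARRDC4. The part of either was not tested.

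**Figure D4:**
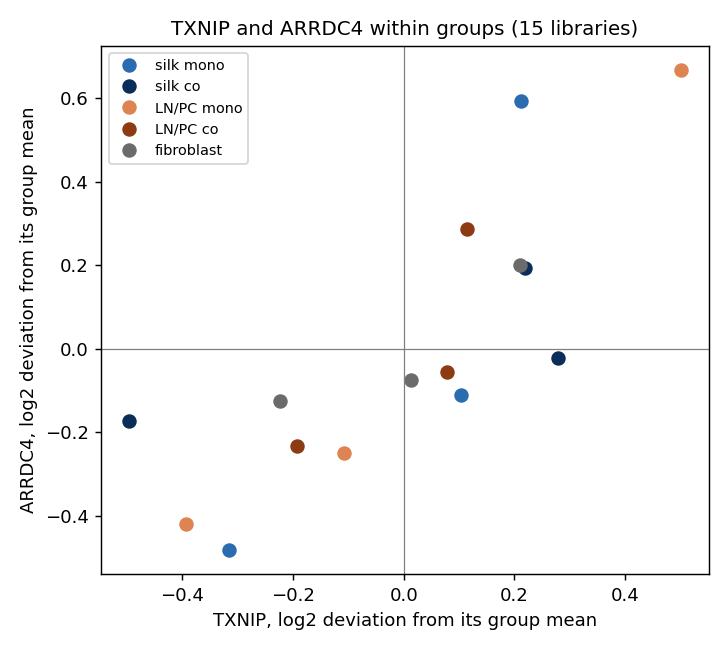
Deviation of TXNIP (x) and ARRDC4 (y) from their group means in log2 units, 1 point for each of 15 libraries. Libraries with more TXNIP than their group mean mostly had more ARRDC4 too, r = 0.811.

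Over the 12 epithelial libraries, the genes whose levels were most like those of SLC2A1 among 9994 were SPIRE1 (Pearson r = 0.981), UPP1 (0.968), RPS6KA5 (0.967), CCN3 (0.961) and KIAA0513 (0.960). UPP1, uridine phosphorylase, averaged 3418 in the silk co-cultures and 452 to 847 in the other epithelial groups. Most like TXNIP were MID1IP1 (0.949), SRSF1 (0.931), LSM2 (0.906), CDKN1C (0.902) and HOXD8 (0.898). MID1IP1, a partner of fatty acid synthesis enzymes, averaged 449 in the silk co-cultures and 644 to 757 elsewhere, a smaller span than that of TXNIP.

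The wider pathway was followed through lists of related genes, also chosen with earlier results known. Hexokinases trap glucose in the cell as glucose 6-phosphate. HK2, the inducible form, had 517, 963 and 817 counts in the silk monocultures, against 4439, 3475 and 4068 in the silk co-cultures, with no overlap. It rose by 2.42 ± 0.19 log2 units on silk (limma, adjusted p = 1.69e-06). On LN/PC it was at 532, 706 and 619 alone and at 565, 579.7 and 543 with fibroblasts, a difference of -0.13 ± 0.19 that was not called. The interaction was 2.55 ± 0.27 (limma, adjusted p = 1.87e-05) and held in all 18 alternatives. HKDC1, a hexokinase-like gene, went from 1229.8 ± 215 to 2236 ± 214 on silk (0.87 ± 0.19) and from 977 ± 249.8 to 526 ± 92.2 on LN/PC (-0.87 ± 0.19). The silk call of HKDC1 held in 10 of 14 alternatives and the LN/PC call in 12 of 15, and its interaction (1.75) in all 18. The LN/PC call was lost after scaling on epithelial genes (-0.45) and against monocultures mixed with fibroblast libraries (-0.67). The silk call was lost without silk monoculture 2 (0.86) or 3 (0.75), or silk co-culture 1 (0.85) or 3 (0.82). Of 7 tested genes for phosphorylating and releasing hexoses, HKDC1 alone was called in either comparison of co-culture with monoculture, 1 of 7 on each membrane, where 3.78% (silk) and 12.5% (LN/PC) of all genes were called. HK2 was counted with the MondoA targets.

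Target genes of MondoA and of its relative ChREBP other than TXNIP and ARRDC4 formed a list of 15 tested genes. Limma called 1 between silk co-cultures and monocultures (HK2, higher), with 3.78% of all genes, and 0 between LN/PC co-cultures and monocultures, with 12.5% of all genes. On LN/PC 3 had an unadjusted p under 0.05. The list had median differences of -0.04 and -0.13 against 0.00 and -0.04 over all genes. Between the co-cultures of the 2 membranes 4 of 15 were higher on silk (18.5% of all genes were) and 2 lower (17.6%). HK2 (2.82), SCD (2.46), a fatty acid desaturase, and PFKFB3 (1.44), a driver of glycolysis, were among the higher ones, and GLUL (-1.004), glutamine synthetase, among the lower. Without the estimated fibroblast RNA the GLUL difference was -0.00181. The fibroblasts had 11957 ± 213 counts of it. SCD was higher on silk in the monocultures as well (1.87 ± 0.26), while GLUL was lower (-1.32).

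Of 18 genes of GLUT traffic and insulin signalling, IRS2 alone was called between silk co-cultures and monocultures, with 3.78% of all genes. On LN/PC 2 were called, both lower, with 12.5% of all genes: the growth factor receptor IGF1R (-0.84, held in 10 of 15 alternatives) and PRKAB1, a subunit of the AMP-activated kinase (-0.50, held in 4 of 15). IGF1R lost the call without LN/PC monoculture 1 (-0.77) or 3 (-0.64), without LN/PC co-culture 1 (-0.81) or 3 (-0.79), or after scaling on epithelial genes (-0.42). IRS2, an adaptor below the insulin receptor, had 412, 282 and 281 counts in the silk monocultures, against 1075, 979 and 1217 in the silk co-cultures, a rise of 1.76 ± 0.19 log2 units (limma, adjusted p = 3.96e-05). On LN/PC it was 202 ± 41.4 alone and 205 ± 11.8 with fibroblasts. The interaction was 1.72 ± 0.27 and held in 18 of 18 alternatives. On the FOXO and glucocorticoid list, CITED2 (1.16) and PER1 (0.95) were also called on silk, 3 of 14 with IRS2, where 3.78% of all genes were called, and CITED2 held in 14 of 14 alternatives. On LN/PC 2 of 14 were called, with 12.5% of all genes. CITED2 was higher there too, at 1957 ± 147 against 1259 ± 39.4 (0.63 ± 0.15, held in 13 of 15 alternatives and lost against monocultures mixed with fibroblast libraries, at 0.49, or 0.41 with the share from summed markers), and so was SGK1, a kinase that regulates ion transport (0.77 ± 0.17, held in 15 of 15). PER1 held in 11 of 14 alternatives. It was lost without silk monoculture 2 (0.84) or silk co-culture 1 (0.94) or 2 (0.82).

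Of 8 other GLUT and SWEET carriers tested, 0 were called by limma in the silk co-cultures against the monocultures, where 3.78% of all genes were, and 1 had an unadjusted p under 0.05. On LN/PC 1 of 8, SLC2A10, was called, with 12.5% of all genes. It was listed at 0 in all LN/PC monoculture libraries and had 42.6, 39.0 and 89.0 with fibroblasts, 0.723 to 1.39 of its weighted sum (0.450 to 0.815 with the summed-marker share), the fibroblasts having 423 ± 22.6. SLC5A3, the sodium-coupled myo-inositol carrier, dropped by 1.01 log2 units on LN/PC (-1.01 ± 0.23), from 2771 ± 898 to 1347 ± 248. That call held in 13 of 15 alternatives and was lost without LN/PC co-culture 1 (-0.91) or after scaling on epithelial genes (-0.58). On silk it was 1941 ± 540.3 alone and 3098 ± 479 with fibroblasts, not called (0.70 ± 0.23), and its interaction was 1.70.

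**Figure D5:**
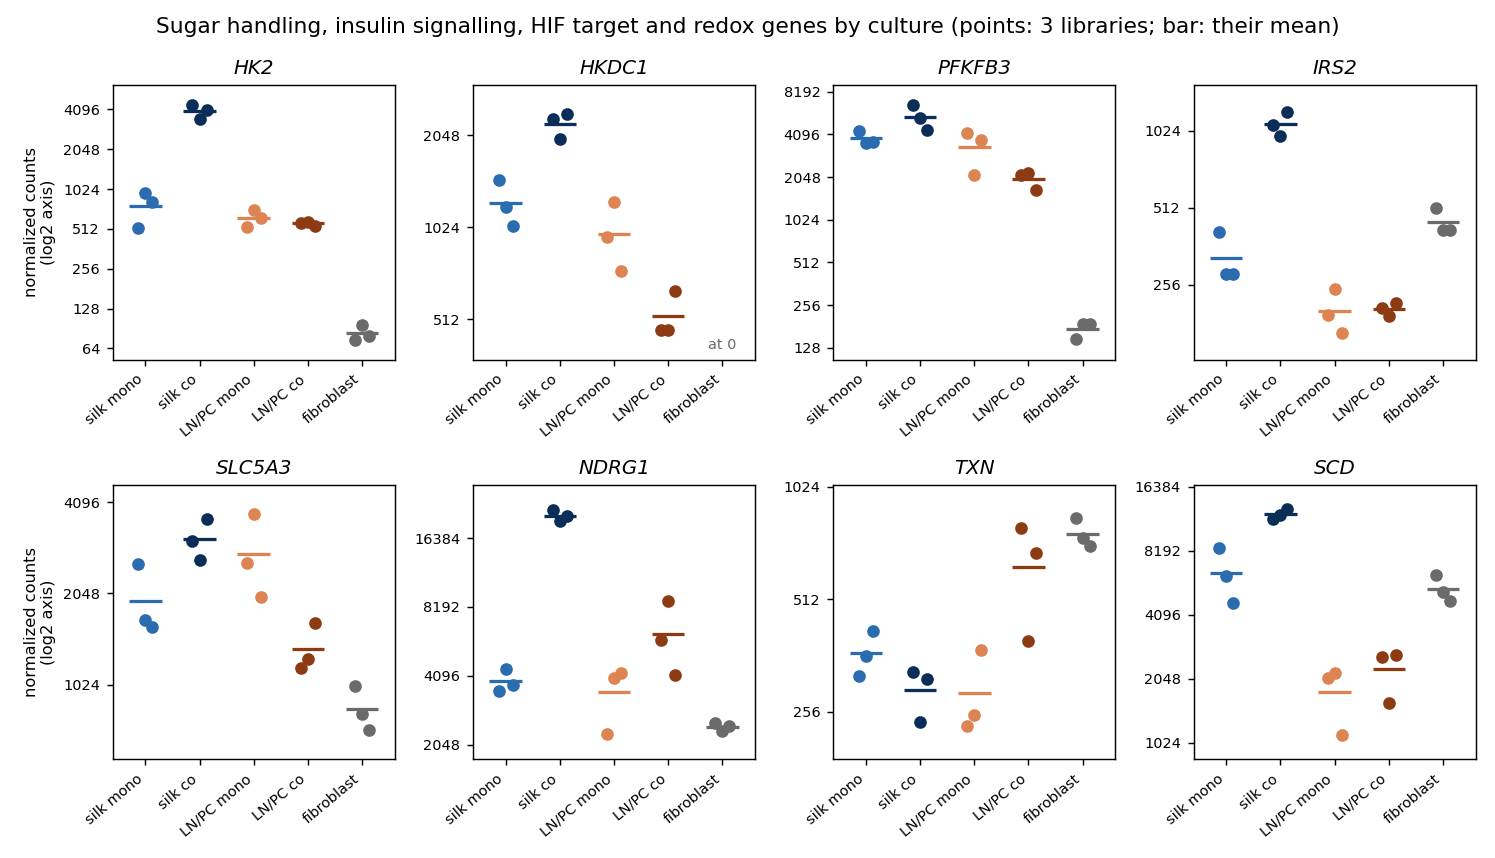
Normalized counts (log2 axis) of 8 genes of the wider pathway in the 5 cultures; points are libraries and bars the mean of 3. HK2, IRS2 and NDRG1 share with SLC2A1 a peak in the silk co-cultures. HKDC1, PFKFB3, SLC5A3 and SCD also have their highest mean there, and SCD is higher on silk in both cultures.

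SLC2A1, HK2 and NDRG1 are also targets of HIF, the oxygen-sensing factor. Of 19 HIF target genes tested, a list with NDRG1 but without SLC2A1 and HK2, limma called none lower. It called 5 higher on silk with fibroblasts (2.91% of all genes were) and 7 on LN/PC (7.80%). An unadjusted p under 0.05 was found for 14 and 10, with no share of all genes at that level to set beside them. The median differences were 0.66 and 0.68, against 0.00 and -0.04 over all genes. NDRG1 went from 3887 ± 447 to 20500.4 ± 1188 on silk (2.40 ± 0.25) and from 3499 ± 1063 to 6223 ± 2309 on LN/PC (0.82 ± 0.25, limma, adjusted p = 0.0452), with an interaction of 1.59. Its LN/PC call was close to the threshold, with co-culture libraries at 5868, 8690 and 4112, and was not recomputed under the alternatives. On LN/PC the collagen hydroxylase subunit P4HA1 (1.29 ± 0.20) and the mitophagy receptor BNIP3 (1.05 ± 0.21) rose, and both held in 15 of 15 alternatives. SLC2A1 had a lower mean in the LN/PC co-cultures, a difference that was not called. Fibroblasts alone had 163 ± 9.87 counts of SLC2A1, 3840 ± 282 of P4HA1 and 593 ± 78.9 of BNIP3. P4HA1 and BNIP3 were also called against LN/PC monocultures mixed with fibroblast libraries, at either share. NDRG1 had 1.23 to 2.56 times its weighted sum in the LN/PC co-cultures. The part of HIF in the levels of these genes was not tested. ADM, called on both membranes (2.16 and 2.11), had 5019 ± 97.2 counts in fibroblasts. Against LN/PC monocultures mixed with fibroblast libraries its difference was -0.15. On silk its call was lost without silk monoculture 2 (1.44) or 3 (2.07) or silk co-culture 1 (1.72) or 2 (2.20).

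None of the 4 other arrestin genes tested (ARRB1, ARRB2, ARRDC1 and ARRDC2) was called by limma between co-cultures and monocultures on either membrane. Of all genes 12.5% were called on LN/PC and 3.78% on silk. An unadjusted p under 0.05 was found for 3 of these arrestins on LN/PC and 0 on silk, with no share of all genes at that level. All 4 were lower in fibroblasts, as were 30.3% of all genes. Of 12 genes of the thioredoxin system, to which TXNIP binds, limma called 0 on silk, where 1 had an unadjusted p under 0.05, and 3 on LN/PC, all higher. Of all genes 3.78% were called on silk and 7.80% were higher on LN/PC. TXN itself, thioredoxin, went from 287 ± 76.1 to 624 ± 205 there (1.09 ± 0.25), with 767 ± 70.0 in fibroblasts. Its call was lost without LN/PC co-culture 1 (0.89) and against monocultures mixed with fibroblast libraries (0.79). Of 8 further genes of the MYC, MAX and MLX network, MXI1 was called on silk (1.04, in 7 of 14 alternatives) and MYC on LN/PC (1.10, in 12 of 15), 1 of 8 on each membrane, with 3.78% and 12.5% of all genes. Of 12 endothelial and immune markers 2 were in the table. The macrophage marker CD68 was also expressed in the fibroblasts (546 ± 30.4). It was higher in both co-cultures, from 152 ± 58.3 to 809 ± 67.3 on silk and from 216 ± 56.0 to 448 ± 84.1 on LN/PC. The silk co-culture mean was above the fibroblast mean, at a fibroblast RNA share of 0 to 0.113%. The part of CD68 in the results above was not tested.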

How the data were processed

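Poly-A RNA of 15 libraries in 5 groups of 3 was sequenced. Salmon 1.10.3 and DESeq2 are named in the submitters' processing notes, while the build and annotation were not given in the sources used here. As deposited by the authors, the values are in 1 table on a log2 scale with 1 floor value common to all libraries, and they have the form of DESeq2's variance-stabilised counts. The transformation was inverted to get back normalized counts, the floor becoming 0. In a check over genes above the floor, the median ratio of inverted values to the gene's average was the same in every library (1.01).

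Differences were fitted with limma 3.58.1 in R 4.3.3 (trend option) on log2(normalized count + 1), over genes with at least 10 in at least 3 libraries. The 12 epithelial libraries shared 1 fit (14433 genes), and fibroblasts and monocultures another of 9 libraries (14502 genes). A gene is called at an adjusted p under 0.05, Benjamini-Hochberg over all tested genes. The procedure was tested on simulated data. All listed genes in the table are reported. Of each related list the text may name up to 4 called genes with the largest difference in a comparison, and other names were chosen after their values were seen. The genes and lists were chosen with earlier results of these data known.

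The fibroblast RNA share came from 112 genes whose fibroblast mean reached 1000 and was 100 or more times the mean on either epithelial monoculture. Likeness was Pearson's r over genes with a mean of at least 100. Alternatives were another pseudocount, no filter, the deposited log2 values, 2 rescalings, fits of only the libraries compared, the replicate block, leaving out each library, mixing monocultures with fibroblast libraries, and taking fibroblast RNA off. The mixture at the summed-marker share was added after seeing the data. Read depth per library could only be estimated from the spacing of low values.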

Additional observations from a re-analysis of the deposited data

Results flagged for a closer look

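For 2 of the 8 genes limma called the interaction (silk difference minus LN/PC difference, in log2 units), where 7.73% of all genes were called (3.15% higher and 4.59% lower). The genes were chosen with the results known, so nothing is read from that count. The interaction was 2.78 for SLC2A1 and -1.35 for TXNIP. Among the related genes it was 2.55 for HK2, 1.75 for HKDC1, 1.72 for IRS2, 1.70 for SLC5A3 and 1.59 for NDRG1, and these 5 were called in all 18 alternatives. It was -1.41 for TXN (called in 13 of 18), -0.75 for TXNDC5 (12), 1.14 for IGF1R (10) and 1.17 for PFKFB3 (9). For SLC2A10 it was -6.01, a size that depends on the pseudocount, since the gene was at 0 in all LN/PC monocultures. Fibroblasts alone had 767 ± 70.0 counts of TXN, 3212 ± 7.52 of TXNDC5 and 423 ± 22.6 of SLC2A10. The mean fibroblast RNA share was 12.97% in the LN/PC co-cultures and 0.0457% in the silk ones. No alternative for the interaction mixed in fibroblast libraries or took fibroblast RNA off, so its part in these values was not tested.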

How the results depend on the processing

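Of 704 differences of the 8 genes recomputed under the alternatives, 651 kept their direction and their side of the threshold, 20 lost the call, 6 gained it and 27 changed sign, all of them small and uncalled. Of the 8 genes, the number called between LN/PC co-cultures and monocultures was 1 when only those libraries were fitted and 1 against monocultures mixed with fibroblast libraries. Leaving out 1 library gave 1 to 3 of the 8 called there, 1 to 3 for the interaction, 4 to 5 between co-cultures, 3 to 4 on silk, 6 to 7 for fibroblasts and 1 between monocultures. In the main fits the shares of all genes called were, in the same order, 12.5%, 7.73%, 36.1%, 3.78%, 58.3% and 11.7%. The mean fibroblast share, 0.0457% on silk and 12.97% on LN/PC as the median over markers, was 0.0119% to 0.0686% and 11.9% to 14.5% when 1 library was left out, and 0.118% and 20.9% when read from summed markers. Signs changed with the deposited log2 values for the SLC2A13 interaction (0.0384). After scaling on epithelial genes they changed for SLC2A3 between monocultures (0.0102), MLX on silk (0.14), and ARRDC3 (0.28) and ARRDC4 (0.27) on LN/PC. Against mixed monocultures on LN/PC they changed for MLX (-0.0239), SLC2A10 (-0.0489) and ADM (-0.15), and at the summed-marker share for SLC2A13 (-0.18), ARRDC3 (0.0175), ARRDC4 (0.00785), MLX (-0.0729), SLC2A10 (-0.73), HECW2 (-0.31) and ADM (-0.72). With fibroblast RNA taken off the co-cultures they changed for MLX (0.0269) and ZBTB16 (3.64). Leaving out 1 library moved the monoculture difference from -0.26 to 0.0753 for SLC2A3, from -0.27 to 0.13 for ARRDC3, from -0.18 to 0.45 for ARRDC4 and from -0.0840 to 0.21 for MLX. It moved the silk difference from -0.11 to 0.30 for ARRDC3 and from -0.14 to 0.00842 for MLX, the LN/PC difference from -0.36 to 0.18 for ARRDC4 and from -0.0743 to 0.22 for MLX, and the interaction from -0.27 to 0.19 for SLC2A13 and from -0.27 to 0.0228 for MLX. Of all genes, 545 were called on silk, against 949 after scaling on epithelial genes and 1174 with only the libraries compared. On LN/PC it was 1807 against 3772, 1088, and 626 or 689 against mixed monocultures at either share, and between monocultures 1685 against 754 with only those libraries. After scaling on epithelial genes 94.2% of the silk calls were higher in place of 77.1%, and 96.7% of the LN/PC calls in place of 62.3%. With that scaling the median of all genes was 0.38 in place of -0.04 on LN/PC and 0.19 in place of 0.00 on silk. The cause was not tested. The replicate block changed the call of none of the 8 genes, and SLC2A1 on silk stayed at 2.20. Same-numbered libraries of 2 groups correlated between -0.254 and 0.189 and others between -0.254 and 0.327, so the numbers are not taken to pair the samples. Low counts, as of SLC2A13 and SLC2A3 in monocultures, carry the widest counting error.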
